A study of Mus musculus with 8 samples.

Results

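The 36 genes described here are 19 cytosolic aminoacyl-tRNA synthetases, 3 scaffold proteins of the multisynthetase complex, and 14 amino acid and stress genes known as targets or partners of the transcription factor ATF4. They were chosen as a list of gene symbols, and all 36 were found among the 55414 genes of the count table and among the 10707 genes with enough counts to be tested. The cells were Paneth cells (PCs), antimicrobial secretory cells of the small intestinal crypt, sorted from 8 mice and profiled by RNA-seq with 1 mouse per library. The study's PC sorts are described as done in C57BL/6J mice. The 4 control mice drank Milli-Q water (purified water) and the 4 zinc mice drank water with 25 mM ZnSO4, both for 7 days, and by their labels all 8 mice were injected with the inflammatory cytokine TNF and sampled 3 hours later. There was no group without TNF, and 1 library, zinc replicate 3, goes against its TNF label in the values given below. Age, sex and litter are not stated for these mice, and p-values measure the spread between these 8 mice.

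Aminoacyl-tRNA synthetases load each tRNA with its amino acid before translation, and a cell that makes much protein for export, such as a PC, depends on them. They fall into class I and class II by the fold of their catalytic domain, and Aimp1, Aimp2 and Eef1e1 hold several of them in a complex. When amino acids run short or the endoplasmic reticulum is stressed, the integrated stress response raises translation of ATF4, which pairs with C/EBP proteins on response elements and drives genes for amino acid synthesis, uptake and tRNA loading. Atf4 mRNA is only a partial readout of this, because much of the control of ATF4 lies in translation.

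Library totals ran from 10623658 to 15101627 counts. The 10 PC marker genes were detected in every library, whereas no immune or stromal marker had counts in every library and their summed levels stayed at or below 1.22 CPM (counts scaled to library size, with TMM factors). Zinc replicate 3 stood apart from the other 7 libraries: its highest correlation with another library was 0.920, while the lowest among the others was 0.965. In zinc replicate 3 the summed level of 20 TNF and NF-kB response genes was 152 CPM against 1843 to 2186 CPM in the other libraries, and that of 10 enterocyte markers was 488 CPM against 80.9 to 150 CPM. The low TNF response genes go against the label of that library, which states the same TNF treatment as the others, and whether the mouse was treated as labelled cannot be told from these files. Results that rest on zinc replicate 3 are given with and without it.

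Sites of the C/EBP-ATF response element were searched in the genome, since the members were grouped partly as ATF4 targets. The core TGATGCAA, read on both strands, lay within 1000 bases of the transcript start in 18 of 36 members (50%), against 428 of 10685 tested genes (4.01%). In the narrower window from 250 bases before to 50 bases after the start it lay in 6 members (16.7%) and in 0.618% of tested genes. With the looser core TGATGNAA, which contains the first, the wide window gave 21 members (58.3%) against 17.1% of tested genes. Matches in the wide window were held by 11 of 22 synthetases and scaffolds and by 7 of 14 amino acid and ATF4 genes. Of the 19 matches in the members, 8 lay in an intron, 6 in an untranslated part of an exon and 5 before the transcript start. The members were listed as ATF4 genes from knowledge of the pathway, which includes such elements, so this share describes the list and is not evidence of binding in PCs.

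**Figure D1:**
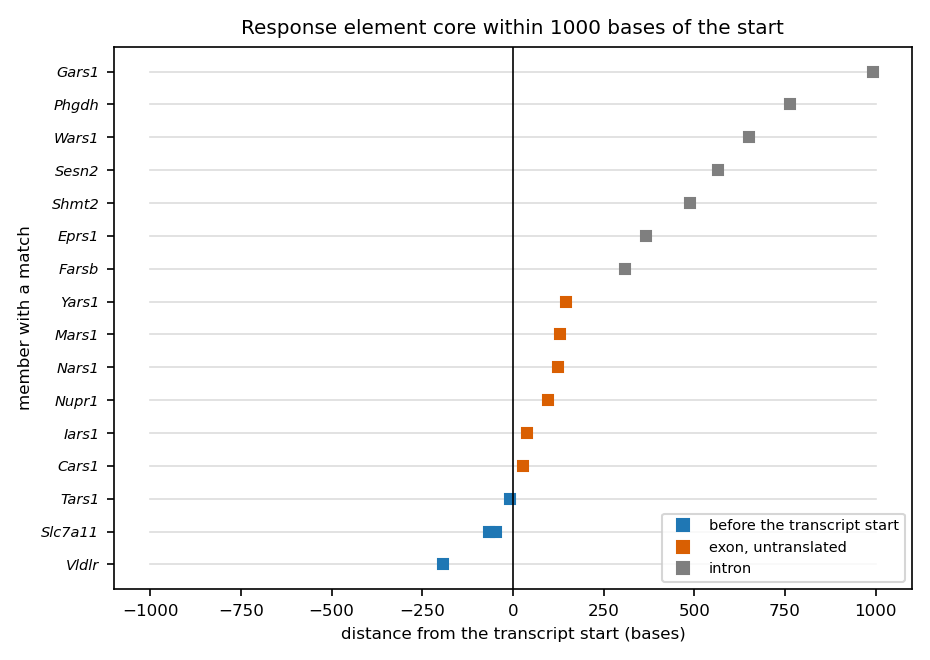
Positions of the response element core in 16 of the 18 members that hold it. The x axis is the distance in bases from the start of the canonical transcript, each square is 1 match, and colors give the annotation; Slc7a11 has 2 matches close together before its start.

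The following 30-base stretches show the element in members that varied widely between mice (Slc7a11, Vldlr, Sesn2), in the most abundant synthetase (Wars1), in a regulator that followed Atf4 (Nupr1) and in a synthetase with a site near the start (Tars1). They are read 5′ to 3′ along the gene's own strand in GRCm39, with the core or its reverse complement in capitals.
Slc7a11 upstream site (chr3:50398110-50398139, minus strand): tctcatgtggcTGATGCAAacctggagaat
Slc7a11 downstream site (chr3:50398091-50398120, minus strand): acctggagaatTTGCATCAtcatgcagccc
Vldlr (chr19:27194209-27194238, plus strand): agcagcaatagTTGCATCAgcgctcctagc
Sesn2 (chr4:132237233-132237262, minus strand): tagggctagggTTGCATCAactgcagcctc
Wars1 (chr12:108859431-108859460, minus strand): aaagggacagcTGATGCAAtgcaatgacaa
Nupr1 (chr7:126224734-126224763, minus strand): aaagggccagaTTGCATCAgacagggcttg
Tars1 (chr15:11399741-11399770, minus strand): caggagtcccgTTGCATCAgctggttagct
The cores of Slc7a11 begin 65 and 46 bases before the start and face opposite ways, that of Vldlr lies 192 bases before it, and that of Tars1 lies 8 bases before it. The Nupr1 core begins at base 97 in untranslated exon sequence. The cores of Sesn2 and Wars1 begin at bases 565 and 652, in introns.

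Levels per length were computed as TPM, which scales counts to the exon length of each gene and then to a fixed library sum, and ran from 1.61 to 168 TPM. Nupr1, a small stress-induced chromatin protein, stood at 168 ± 44.6 TPM and Wars1, the tryptophanyl synthetase, at 161 ± 57.0 TPM (SD, n = 8), a pair whose difference was far below their spread. Next were Slc3a2 and Slc7a5, the heavy and light chains of the large neutral amino acid transporter, at 56.4 ± 19.8 and 47.3 ± 23.4 TPM, with Nars1 between them at 48.8 ± 13.0 TPM. The lowest were Slc7a11, the cystine and glutamate exchanger, at 1.64 ± 1.35 TPM, and Psph, the last enzyme of serine synthesis, at 1.61 ± 0.316 TPM. The order changed little with the length of the longest transcript (Spearman rho = 0.962 over 36 members), although Wars1 then passed Nupr1, at 299 and 249 TPM. Atf4 itself stood at 132 ± 35.5 TPM.

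The synthetases listed here as cytosolic had a median far above that of those listed as mitochondrial. The median of the 19 cytosolic synthetases was 14.1 TPM, from 3.51 TPM for Farsa, a subunit of the phenylalanyl enzyme, to 161 TPM for Wars1. The median of 17 mitochondrial synthetases was 0.672 TPM, from 0.241 TPM for Wars2 to 10.99 TPM for Lars2. The ratio of the medians was 21.5 ± 3.02 (SD, n = 8) and lay between 16.3 and 25.9 in single libraries. Of the mitochondrial synthetases, 1 stood above the lowest cytosolic one, and 2 did with the length of the longest transcript. Lars2 also stood above Cars1, Eprs1, Mars1, Yars1 and Farsb, at 3.63 to 8.17 TPM.

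Zinc against water was the comparison of the design, and no member passed it. Of all 10707 genes, 0 (0%) passed an adjusted p of 0.05 by edgeR's quasi-likelihood test, 1092 genes (10.2%) had an unadjusted p under 0.05, and 629 genes (5.87%) had groups that did not overlap. DESeq2, which tested 18720 genes under its own filter, called 4 with 1286 at an unadjusted p under 0.05, and limma-voom called 0 of the 10707 with 1324. Of the 36 members, 0 were called by edgeR, DESeq2 or limma-voom, 0 had an unadjusted p under 0.05 by edgeR, and 0 had groups that did not overlap. Their log2 fold changes, zinc over water, ran from -0.45 to 0.29, with 14 above 0 and 22 below. The median was -0.05 over the 22 synthetases and scaffolds, -0.09 over the 14 amino acid and ATF4 genes, and 0.01 over all tested genes. With 1 library left out, the median of synthetases and scaffolds was lowest without zinc replicate 4, at -0.14, and highest when zinc replicate 3 was dropped, at 0.00027. That of amino acid and ATF4 genes was -0.41 without zinc replicate 4 and 0.03 when zinc replicate 1 was dropped, and limma-voom gave -0.29 for the latter.

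Most of the tested goblet, crypt and enterocyte markers had higher fitted values in zinc. Of 8 goblet cell markers, 4 were higher and 1 lower in zinc at an unadjusted p under 0.05, with a median log2 change of 1.03. Their summed levels were 3824 to 6118 CPM in water and 5953 to 10472 CPM in zinc, with zinc replicate 3 at 5953 CPM. Of the 4 higher, Fcgbp, Zg16 and Clca1 were highest in zinc replicate 3, at 1270, 109 and 82.2 CPM. The other zinc libraries stood at 76.4 to 318 CPM for Fcgbp, 9.35 to 48.1 CPM for Zg16 and 8.47 to 54.9 CPM for Clca1. Atoh1 was highest in zinc replicate 1, at 133 CPM. Of 7 tested crypt stem and dividing cell markers, 3 were higher at that threshold, with a median of 0.96. Summed over all 8 listed, the levels were 437 to 633 CPM in water and 509 to 1091 CPM in zinc. Lgr5, of the 3 higher, was at 52.3 CPM in zinc replicate 3 and at 8.55 to 22.6 CPM in the other zinc libraries. Top2a was also highest in zinc replicate 3, and Mki67 in zinc replicate 1. Of 7 tested enterocyte markers, 1 was higher at that threshold, with a median of 0.98. Summed over all 10 listed, the levels were 92.7 to 122 CPM in water and 80.9 to 488 CPM in zinc. The 488 CPM was zinc replicate 3, and the other zinc libraries stood at 150, 122 and 80.9 CPM. Anpep, the 1 higher gene, was at 357 CPM in zinc replicate 3 and at 110, 87.4 and 68.4 CPM in the other zinc libraries. In water Anpep stood at 58.8 to 82.7 CPM. None of these markers passed the adjusted test by edgeR. Their part in the members' values was not tested, and in bulk samples fewer cells of a type and less RNA per cell cannot be told apart.

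Leaving out zinc replicate 3 moved many of the fold changes given below by over 1.5 times. Without it the log2 fold change was -0.10 for Atf4, -0.11 for Rars1, -0.21 for Qars1, 0.18 for Mars1, -0.20 for Farsa, 0.23 for Aars1, -0.0014 for Kars1, 0.0019 for Nars1 and 0.15 for Vars1. It was -0.42 for Aimp1, -0.21 for Eef1e1, -0.07 for Asns and -0.14 for Cebpg. It was -0.10 for Sesn2, 0.26 for Slc7a11, 0.24 for Slc7a5, 0.09 for Slc3a2 and -0.0083 for Vldlr. The values of Iars1, Psph, Mthfd2, Atf5 and Nupr1 moved less.

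**Figure D2:**
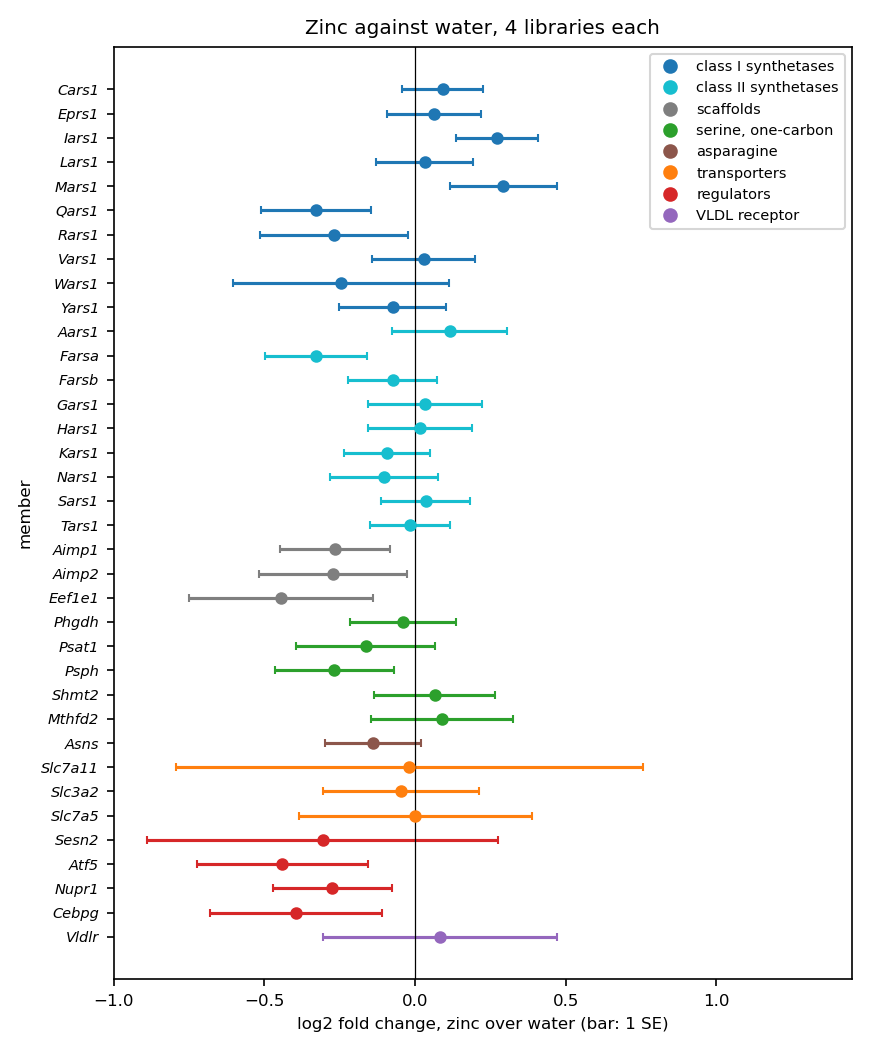
Log2 fold change of each member, zinc over water (x axis), with bars of 1 SE from edgeR and 4 libraries per group; colors give the role. The points lie between -0.45 and 0.29, and the widest bars belong to Slc7a11 and Sesn2.

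Among class I synthetases, Iars1, which loads isoleucine, had the smallest p of all members. It stood at 102, 89.0, 77.2 and 82.7 CPM in water and at 109, 104, 101 and 109.5 CPM in zinc. Water replicate 1 overlapped the zinc libraries, and the log2 fold change was 0.27 ± 0.14 (SE; adjusted p = 0.491 by edgeR). Mars1, which loads methionine, had the highest fitted change of the group: 56.4, 49.2, 42.6 and 62.8 CPM in water and 65.8, 50.3, 79.6 and 63.1 CPM in zinc, with a zinc-over-water log2 change of 0.29 ± 0.18 (SE; adjusted p = 0.527 by edgeR). Its highest library was zinc replicate 3. Qars1, which loads glutamine, had the lowest change of class I, with 95.5, 88.5, 105 and 98.9 CPM in water and 64.4, 87.6, 58.2 and 98.1 CPM in zinc. Zinc replicates 1 and 3 were low while zinc replicate 4 lay among the water libraries, and the log2 fold change was -0.33 ± 0.18 (SE; adjusted p = 0.512 by edgeR).

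Wars1 was nearly level in 7 libraries and low in 1. It stood at 1157, 1171, 1109 and 1193 CPM in water and at 1144, 1153, 304 and 1302 CPM in zinc. Wars1 is known as an interferon-inducible synthetase, and in zinc replicate 3, where it was at its lowest, the summed level of 25 interferon-stimulated genes was 123 CPM. That sum was 507 to 563 CPM in the other zinc libraries and 650 to 733 CPM in water, while Wars1 was not lower in those zinc libraries than in water. The part of zinc replicate 3's state in the Wars1 value was not tested. The log2 fold change was -0.25 ± 0.36 (SE; adjusted p = 0.785 by edgeR), and 0.06 without zinc replicate 3. Vars1, the valyl synthetase, was also lowest in zinc replicate 3, at 135 CPM against 194 to 202 CPM in the other zinc libraries and 153 to 198 CPM in water, with a log2 fold change of 0.03 ± 0.17 (SE). Rars1, which loads arginine, stood at 222, 201, 181 and 232 CPM in water and at 135, 185, 113 and 261 CPM in zinc. The zinc libraries thus held both the lowest and the highest value, and the log2 fold change was -0.27 ± 0.25 (SE; adjusted p = 0.649 by edgeR). The other members listed under class I, Cars1, Eprs1, Lars1 and Yars1, varied between their lowest and highest library by 1.35-fold to 1.60-fold.

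Class II synthetases varied about as much as class I, with a median range between libraries of 1.56-fold against 1.57-fold. Farsa had the lowest change, from 25.6, 22.2, 27.9 and 24.9 CPM in water to 19.6, 20.5, 14.7 and 25.2 CPM in zinc, a zinc-over-water log2 change of -0.33 ± 0.17 (SE; adjusted p = 0.494 by edgeR). Only zinc replicate 4 lay within the water range. Aars1, which loads alanine, had the highest change, 0.11 ± 0.19 (SE) on the log2 scale, and Kars1, which loads lysine, stood at -0.09 ± 0.14 (SE). Nars1, the asparaginyl synthetase, was at 312, 304, 241 and 306 CPM in water and 243, 297, 212 and 332 CPM in zinc, a log2 fold change of -0.10 ± 0.18 (SE). Tars1, which loads threonine, was the steadiest of all members, with a 1.23-fold difference between its lowest and highest library. The remaining class II members were Farsb, Gars1, Hars1 and Sars1, with ranges of 1.35-fold to 1.71-fold.

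The 3 scaffolds all had lower fitted values in zinc, and none passed the test. Eef1e1 had the lowest change of all members, from 12.2, 9.77, 21.05 and 15.0 CPM in water to 11.9, 13.4, 5.33 and 11.6 CPM in zinc, a zinc-over-water log2 change of -0.45 ± 0.30 (SE; adjusted p = 0.563 by edgeR). Water replicate 3 was the highest and zinc replicate 3 the lowest. Aimp1 stood at -0.26 ± 0.18 (SE) on the log2 scale. Aimp2 was at 16.98 CPM in water replicate 3 and at 7.67 to 10.2 CPM in the other 7 libraries. Water replicates 3 and 4 differed from the rest by a trend with transcript length (rho of -0.287 and -0.296 between a gene's deviation and its length). With that trend removed the log2 fold change was -0.25 for Aimp1 and -0.40 for Eef1e1, and without water replicates 3 and 4 it was -0.09 and -0.06.

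Serine and one-carbon enzymes, which supply glycine, serine and folate-bound carbon, had their highest and lowest values partly in the same libraries. Psat1, the aminotransferase of serine synthesis, stood at 112, 84.2, 96.7 and 99.2 CPM in water and 54.9, 79.3, 87.5 and 128 CPM in zinc. Mthfd2, the mitochondrial folate enzyme, stood at 108, 95.6, 68.1 and 100 CPM in water and 65.3, 89.4, 98.9 and 142 CPM in zinc, a log2 fold change of 0.09 ± 0.24 (SE). Both were lowest in zinc replicate 1 and highest in zinc replicate 4. Psph had the lowest change of the group, -0.27 ± 0.20 (SE), and Shmt2, which moves a carbon from serine to folate, varied by 1.92-fold. Phgdh, the first enzyme of serine synthesis, departed from the others: it was lowest in water replicate 1 and highest in water replicate 3, between 24.5 and 39.5 CPM. Asns, which makes asparagine, stood at 352, 310, 345 and 350 CPM in water and 274, 310, 268 and 379 CPM in zinc, a zinc-over-water log2 change of -0.14 ± 0.16 (SE; adjusted p = 0.718 by edgeR).

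The transporters and Sesn2 varied widely between mice of the same group. Slc7a11 stood at 38.5, 39.4, 6.28 and 19.99 CPM in water and at 2.72, 27.0, 9.40 and 64.4 CPM in zinc. The lowest and highest libraries, 23.7-fold apart, were both zinc libraries, and the log2 fold change was -0.02 ± 0.77 (SE; adjusted p = 0.993 by edgeR). Slc7a5 stood at 236, 225, 114 and 185 CPM in water and at 117, 226, 89.8 and 328 CPM in zinc, and Slc3a2 at 339, 296, 210 and 293 CPM in water and at 210, 273, 194 and 424 CPM in zinc. Water replicate 3, zinc replicate 1 and zinc replicate 3 were the 3 low libraries of each transporter, and zinc replicate 4 was the highest. The log2 fold changes were 0.00 ± 0.38 (SE) for Slc7a5 and -0.05 ± 0.26 (SE) for Slc3a2.

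Sesn2, an inhibitor of the growth kinase complex mTORC1, showed the same low libraries, with 49.8, 42.5, 14.0 and 40.5 CPM in water and 5.90, 36.1, 16.3 and 60.8 CPM in zinc, a zinc-over-water log2 change of -0.31 ± 0.58 (SE; adjusted p = 0.841 by edgeR). Atf5, a transcription factor related to ATF4, had the lowest change of the regulators, -0.44 ± 0.28 (SE; edgeR adjusted p = 0.543). Nupr1, at 758, 807, 604 and 861 CPM in water and 565, 579, 521 and 839 CPM in zinc, had a log2 fold change of -0.27 ± 0.20 (SE). Cebpg, the C/EBP protein that pairs with ATF4, was at 71.3 to 88.2 CPM in water and at 61.8, 75.2, 27.2 and 84.4 CPM in zinc, a log2 fold change of -0.40 ± 0.29 (SE). Vldlr, a lipoprotein receptor, stood at 36.6, 42.6, 13.4 and 33.0 CPM in water and 15.9, 26.0, 39.4 and 52.3 CPM in zinc, with a log2 fold change of 0.08 ± 0.39 (SE). Unlike the transporters, it was not low in zinc replicate 3.

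**Figure D3:**
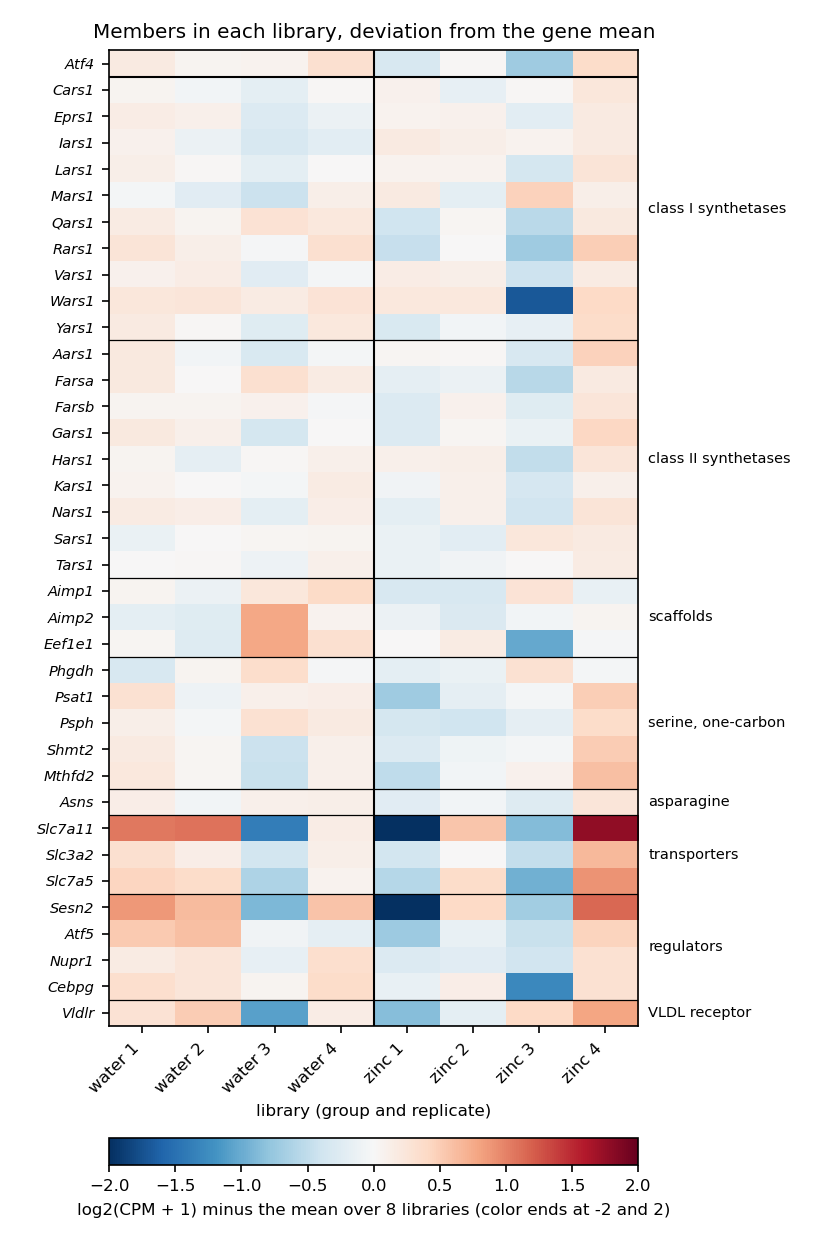
Atf4 and the 36 members (rows, grouped by role) in the 8 libraries (columns), as log2(CPM + 1) minus the gene's mean over the libraries; red is above and blue below that mean. Zinc 4 holds the highest value of 24 members, and the low values of the transporters and Sesn2 fall in water 3, zinc 1 and zinc 3.

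The extremes of the members fell in a few libraries. Of the 36 members, 24 were highest in zinc replicate 4, where 11.9% of all tested genes had their highest value. The lowest value fell in zinc replicate 3 for 16 members, in zinc replicate 1 for 9 and in water replicate 3 for 7, against 30.0%, 8.12% and 16.5% of all tested genes. The ratio of the highest to the lowest library had a median of 1.64 over synthetases and scaffolds, 2.26 over amino acid and ATF4 genes, and 2.02 over all tested genes. Members of a set also varied together: the median r between pairs was 0.378 among synthetases and scaffolds and 0.677 among amino acid and ATF4 genes, against -0.002 over all pairs of tested genes. Without zinc replicate 3 these were 0.382, 0.740 and -0.001. All pairs share the same 8 libraries, and these values are descriptions.

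Co-variation with Atf4 was the second question asked of the list. Atf4 stood at 376, 345, 345 and 411 CPM in water and at 266, 336, 201 and 429 CPM in zinc, a zinc-over-water log2 change of -0.26 ± 0.22 (SE; adjusted p = 0.627 by edgeR). Zinc replicates 3 and 1 were its lowest libraries and zinc replicate 4 its highest. Pearson's r with Atf4 on log2(CPM + 1), tested over every order of the 8 libraries (two-sided exact permutation test, Benjamini-Hochberg over 10706 genes), passed an adjusted p of 0.05 in 5 of 36 members, against 389 of 10706 genes (3.63%). An r above 0.7 was found in 15 members, against 18.2% of tested genes, and the median r was 0.644 over the members and -0.037 over all genes.

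The 5 members that passed were Rars1, Cebpg, Kars1, Asns and Nupr1. Rars1 had r = 0.982 (exact permutation p = 9.92e-05, adjusted p = 0.0217) and rho = 0.929 (exact permutation p = 0.00223). Cebpg had r = 0.933 (exact permutation p = 0.000694, adjusted p = 0.0395) and rho = 0.857 (exact permutation p = 0.0107). Kars1 had r = 0.932 (exact permutation p = 0.00161, adjusted p = 0.0489) and rho = 0.810 (exact permutation p = 0.0218). These 3 genes, like Atf4, were lowest in zinc replicate 3 and next lowest in zinc replicate 1. Asns had r = 0.922 (exact permutation p = 0.000149, adjusted p = 0.0249) and rho = 0.952 (exact permutation p = 0.00114), and Nupr1 had r = 0.833 (exact permutation p = 0.000521, adjusted p = 0.0362) and rho = 0.905 (exact permutation p = 0.00456). Without zinc replicates 3 and 4, the 2 libraries farthest from the median of Atf4, r was 0.978, 0.937, 0.790, 0.909 and 0.765 for Rars1, Cebpg, Kars1, Asns and Nupr1, and no member passed the adjusted threshold over 6 libraries. With Spearman's rho, or with deviations from the group means, 0 members and 0 genes passed. The unadjusted p was under 0.05 in 13 members under each, against 1818 and 1543 of 10706 genes. Orders within groups, or of 6 libraries, are few, and the smallest p they gave was 0.00174 and 0.00139 (exact permutation test). Many genes must share that p to pass the adjusted threshold, so those zeros alone do not measure lost co-variation. Without water replicates 3 and 4, also 6 libraries with that smallest p, 4 members and 315 genes passed. Having 6 libraries thus did not by itself fix the count at 0. Without zinc replicates 3 and 4, r was above 0.7 in 12 members and 9.42% of genes. The members' median r was 0.673 with deviations from the group means, against -0.031 over all genes. Without zinc replicates 3 and 4 it was 0.642, against -0.004 over all genes.

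**Figure D4:**
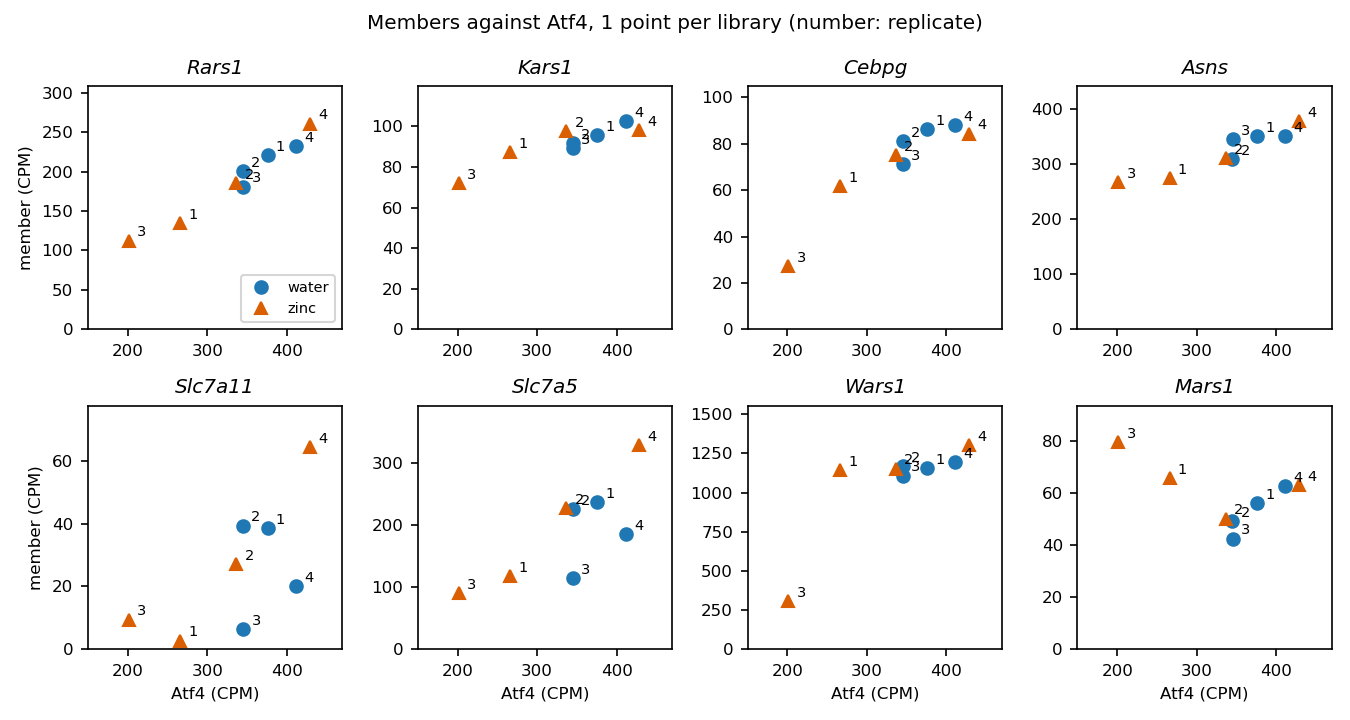
Level of 8 members (y axis, CPM, from 0) against Atf4 (x axis, CPM, from 150), 1 point per library, circles for water and triangles for zinc with replicate numbers. Rars1, Kars1, Cebpg and Asns are higher where Atf4 is higher, Wars1 is low in zinc 3 alone, and Mars1 is highest where Atf4 is lowest.

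By role, the median r with Atf4 over all 8 libraries was 0.654 for class I synthetases, 0.775 for class II and 0.129 for scaffolds. It was 0.489 for serine and one-carbon enzymes, 0.807 for transporters and 0.764 for regulators. The lowest members were Mars1 (r = -0.503), Phgdh (r = -0.367) and Iars1 (r = -0.243). Without zinc replicate 3 the r of Mars1 was 0.068, of Phgdh 0.121 and of Iars1 -0.206. As a group, the serine and one-carbon enzymes then no longer lay below class I. Psat1, Mthfd2, Psph and Shmt2 stood at 0.939, 0.836, 0.757 and 0.742. In class I, Cars1, Eprs1, Lars1 and Vars1 stood at 0.281, 0.038, 0.313 and -0.125. Qars1, Rars1, Wars1 and Yars1 stood at 0.843, 0.984, 0.653 and 0.898. Without zinc replicate 3 the median r was 0.6995 over the members and -0.014 over all genes. Then r was above 0.7 in 18 members and 7.72% of genes, partly other members than the 15 with all libraries. Farsa, Hars1 and Slc7a5 fell below 0.7, to 0.679, 0.280 and 0.688, as did Lars1 and Wars1. Tars1, Slc7a11, Sesn2 and Vldlr rose above it, to 0.882, 0.770, 0.855 and 0.7003, as did Psat1, Psph, Shmt2 and Mthfd2. The TNF and NF-kB response genes had a median r with Atf4 of 0.776 over 19 genes with all libraries and of -0.090 without zinc replicate 3, and the interferon-stimulated genes 0.697 and -0.079. The medians of other cell types' markers were below 0: with all libraries and without zinc replicate 3, the median r was -0.684 and -0.776 over 7 crypt stem and dividing cell markers, -0.800 and -0.441 over 7 enterocyte markers and -0.521 and -0.230 over 8 goblet cell markers. Their part in the members' co-variation with Atf4 was not tested. Members with a TGATGCAA match within 1000 bases had a median r of 0.603 and those without one 0.697, with 18 in each.

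**Figure D5:**
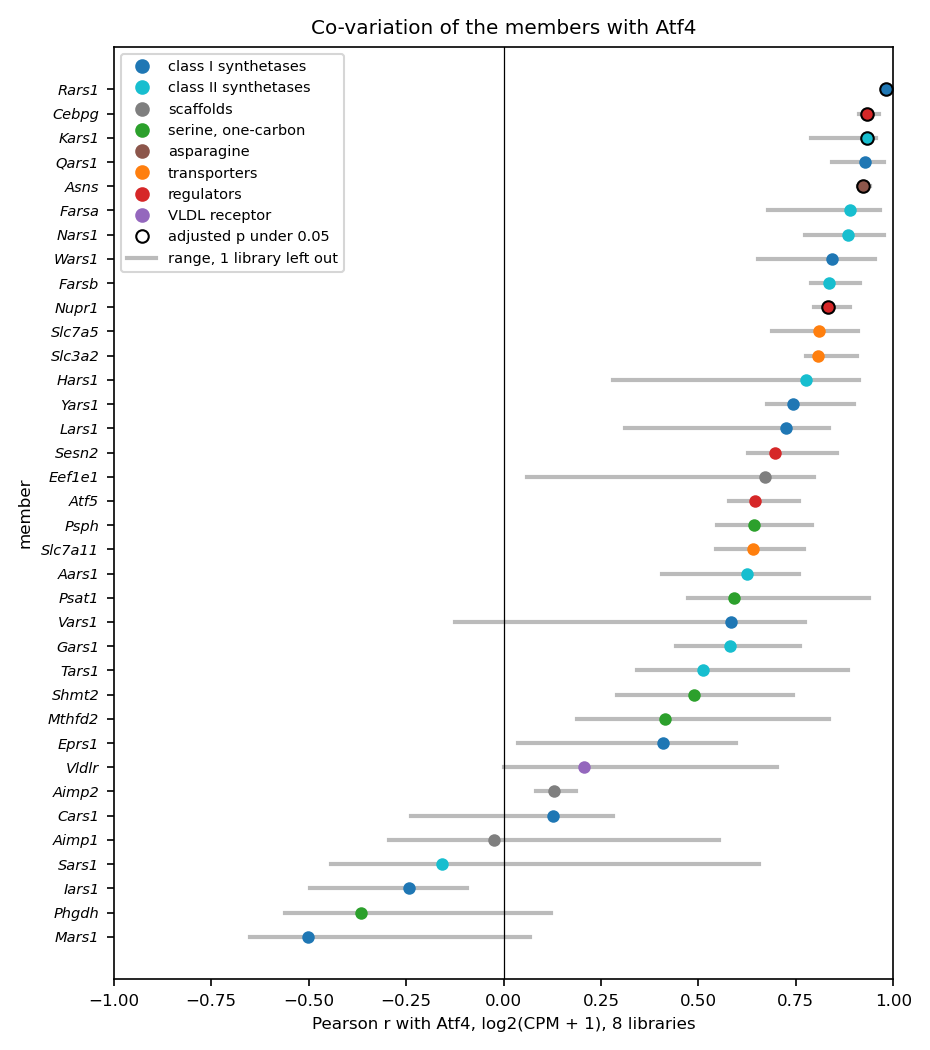
Pearson r of each member with Atf4 (x axis) over 8 libraries, colored by role and ordered by r; grey bars span the values with 1 library left out, and black outlines mark an adjusted p under 0.05. The values run from -0.503 for Mars1 to 0.982 for Rars1.

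The rest of the pathway was described from lists of the same kind. Of 15 genes for integrated stress response kinases and eIF2 factors, 0 passed the adjusted test by edgeR. An unadjusted p under 0.05 was found in 1 of them, against 10.2% of all tested genes. It was Eif2s2, a subunit of the initiation factor eIF2, at 98.7 ± 10.4 CPM in water and 74.2 ± 12.4 CPM in zinc (SD, n = 4). Its zinc-over-water log2 change was -0.41 ± 0.16 (SE; adjusted p = 0.485 by edgeR). Groups did not overlap in 1 of the 15, against 5.87% of all tested genes. It was Eif2b1, at 24.5 to 27.1 CPM in water and 21.8 to 23.8 CPM in zinc. Of 29 tested genes of the wider ATF4 axis, 0 passed and 0 had an unadjusted p under 0.05. Their changes ran from -0.99 for Jdp2 to 0.81 for Gpt2. Zinc replicate 3 held the highest Gpt2, 94.7 CPM. The other zinc libraries stood at 23.7, 26.7 and 46.1 CPM and water at 16.1 to 33.4 CPM. Zinc replicate 3 also held the lowest Jdp2, 0.98 CPM. For Jdp2 the other zinc libraries stood at 1.59, 8.03 and 10.7 CPM and water at 3.57 to 15.6 CPM. Groups did not overlap in 1 of the 29, against 5.87% of all tested genes. It was Ddit4, an mTORC1 inhibitor, at 266, 232, 220 and 261 CPM in water and 56.4, 211, 59.0 and 211 CPM in zinc. With Atf4, 4 of the 28 others passed the correlation test: Cebpb, Atf3, Trib3 and Nrbf2, with r of 0.957, 0.964, 0.923 and 0.903, against 3.63% of all tested genes. The list's median r was 0.351, its lowest values were -0.758 for Rcan1, -0.731 for Tars3 and -0.699 for Pycr1, and without zinc replicate 3 the median was 0.646 and no tested gene passed. Of 17 mitochondrial synthetases 0 passed by edgeR. Among those with an unadjusted p under 0.05 was Vars2, the mitochondrial valyl enzyme, at 0.57 ± 0.22 (log2 fold change ± SE). Yars2 had the lowest change of that list, -0.49, and their median r with Atf4 was -0.109.

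Some members share sequence with neighbors. Yars1, Aars1, Farsb, Kars1, Aimp1, Aimp2, Psph and Atf5 overlap a protein-coding gene on the opposite strand. The library kit keeps strand, but no source states whether the counting used it, so the counts of these 8 genes, Kars1 among them, may hold reads of the partner.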

How the data were processed

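PC RNA was sequenced in 8 libraries, 4 per group, placed by their labels. The authors deposited raw counts per Ensembl gene. The submitters' processing notes name FastQC 0.12.0, STAR 2.7.10a, DESeq2 and mm39; the counter, annotation and strand rule are not given in the sources used here. Identifiers were matched to GENCODE M39 on GRCm39 (54749 matched, 665 did not). From the counts, edgeR 4.0.16 (TMM, filterByExpr, quasi-likelihood test, Benjamini-Hochberg over 10707 genes holding 99.89% of counts) compared zinc with water; DESeq2 1.42.0 and limma 3.58.1 were alternatives. CPM used TMM-scaled totals, and TPM divided counts by exon-union length. Correlations used log2(CPM + 1) and an exact permutation test. Motifs were searched around the canonical transcript start. Library totals limit the counting precision only. The spread between libraries of a group, which the edgeR test used, came to a common coefficient of variation of 0.269. On simulated counts of 10606 genes for this comparison, edgeR recovered 46% of genes changed by 1 and 93% changed by 2 on the log2 scale. No 2 libraries agreed within sampling noise (smallest chi-square per degree of freedom 6.44 over 28 pairs).

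The members and gene lists were chosen with earlier results of these data known. Fold changes are given for Atf4, the highest and lowest change of each role group, the smallest p, members whose correlation with Atf4 passed, the 3 of widest range and those with a library far from its group; all other members are named with levels or ranges. A few items are not reported here.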

Additional observations from a re-analysis of the deposited data

Results flagged for a closer look

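In each group of 4 libraries, a value far from the other 3 was searched by Dixon's ratio over 74 groups (the 36 members and Atf4, in water and in zinc). It was found in 4 groups, where chance gives about 3.7. Wars1 in zinc replicate 3 stood at 304 CPM against 1144 to 1302 CPM in the other zinc libraries, and Vars1 in zinc replicate 3 at 135 CPM against 194 to 202 CPM. Nars1 in water replicate 3 stood at 241 CPM against 304 to 312 CPM. Asns in water replicate 2 stood at 310 CPM against 345 to 352 CPM.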

How the results depend on the processing

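Of 456 fold changes of the 23 named members and Atf4 under alternatives, 418 kept their direction and 38 turned, 24 of them with a library left out; none of these values was called. Leaving out water replicates 3 and 4 gave log2 fold changes of -0.10 for Vars1, -0.0065 for Aars1, -0.0502 for Mthfd2, -0.28 for Slc7a5 and -0.25 for Vldlr. limma-voom gave -0.13 for Mthfd2, -0.0608 for Slc7a5 and -0.36 for Vldlr. Slc7a5, near 0, also gave -0.0029 with DESeq2 size factors, -0.0073 with no filter and -0.0055 with DESeq2. With 1 library left out the ranges were -0.0412 to 0.15 for Vars1, -0.42 to 0.056 for Wars1, -0.0441 to 0.23 for Aars1, -0.22 to 0.0019 for Nars1, -0.14 to 0.24 for Mthfd2, -1.001 to 0.36 for Slc7a11, -0.34 to 0.0921 for Slc3a2, -0.40 to 0.24 for Slc7a5, -0.92 to 0.0344 for Sesn2 and -0.22 to 0.31 for Vldlr.

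Same-numbered libraries did not vary together (correlations of deviations from -0.045 to 0.041), so the numbers were not read as pairs. With the replicate number as a block, 0 genes were called and Slc7a5 stood at -0.13; with the block and the length trend removed, an alternative added after seeing the data, Slc7a5 stood at -0.11 and Vldlr at -0.0378.

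DESeq2 called 4 genes and no member. The count of members correlated with Atf4 was 5, and it was 0 with Spearman's rho, 0 with deviations from the group means, 0 without the 2 libraries farthest from the median of Atf4, and 0 to 8 with 1 library left out. It was 8 without water replicate 3 (345 of 10706 genes), 2 without water replicate 2 (128 genes), 1 without water replicate 4 (93 genes) and 0 without water replicate 1 (86 genes), and 0 members and 0 genes passed with any 1 zinc library left out. It was 4 (315 genes) without water replicates 3 and 4, added after seeing the data. The motif count was 6 in the narrow window and 18 in the window of 1000 bases, added after seeing the data. With deviations from the group means, and over 6 libraries, the smallest p was 0.00174 and 0.00139 (exact permutation test), which limits what can pass. The cause of these changes was not tested otherwise.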
